A study of Homo sapiens with 10 samples.

Results

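MDA-MB-435 is a human melanoma cell line. The comparison described here sets cells exposed for 24 h to hepatocyte growth factor (HGF) against cells exposed for 6 h, that is 2 arrays against 2 arrays out of 10 in the series, chosen by their labels alone. All cells were kept in standard growth conditions, and the labels give neither an HGF dose nor a serum condition. The other 6 arrays (HGF 1 h, untreated cells and cells transduced with integrin beta-4, 2 of each) serve here only for the spread between replicates and, for the untreated and 1 h cells, as levels set beside the 2 times. The 2 arrays of a group are biological duplicates according to the series design text, and each p-value rests on the spread within all 5 groups.

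HGF is the ligand of the receptor tyrosine kinase MET. Bound MET recruits the docking proteins GAB1 and GAB2 and signals through RAS to ERK, through PI3 kinase to AKT, and through STAT3, and the cells respond with transcription of early genes, motility and proliferation. ERK and mTOR signalling also act on ribosome production, and ATF4 is a transcription factor whose translation increases when amino acids are scarce or the endoplasmic reticulum is stressed. At 6 h a growth factor response has passed its immediate early phase, whereas 24 h is a late time at which feedback has had time to act.

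Signals are quantile-normalised bead intensities, and a probe was tested if its detection score reached 0.99 on at least 1 of the 10 arrays. The 24 h arrays had 11685 (48.5%) and 10486 (43.5%) of 24105 probes detected, and the 6 h arrays had 10593 (43.9%) and 11722 (48.6%). Across probes, the 24 h replicates correlated at 0.976 and the 6 h replicates at 0.984, against 0.973 and 0.970 between the times within replicate 1 and within replicate 2. Of 9 melanocyte lineage markers with a probe, 8 and 8 were detected on the 24 h arrays and 7 and 9 on the 6 h arrays. Of 10 epithelial markers with a probe, 5 and 5 were detected on the 24 h arrays and 4 and 5 on the 6 h arrays. ESRP1, KRT14 and KRT18 were detected on all 4 and CDH1, CLDN7, EPCAM and KRT19 on none, and of 8 fibroblast markers only DCN and LUM were detected, on all 4. Of 6 immune markers with a probe, 0 and 0 were detected on the 24 h arrays and 0 and 2 on the 6 h arrays. The summed signal of the melanocyte markers was 23978.5 and 20449.2 at 24 h, and 19018.8 and 17673.1 at 6 h, which was not tested. In a longer melanocyte lineage list, 2 of 25 measured genes passed the test described below (8.0%, against 9.53% of all genes). The median log2 difference of that list was 0.05.

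Between 24 h and 6 h, 1165 of 14018 probes (8.31%) passed limma's test at a Benjamini-Hochberg adjusted p under 0.05. Of these, 594 (4.24%) were higher at 24 h and 571 (4.07%) were lower, standing for 520 and 505 genes with a symbol. Counted by gene through its brightest probe, 514 of 10596 genes (4.85%) were called higher, 496 (4.68%) lower and 1010 (9.53%) either way. Folds were moderate. The median fold was 1.75 among called rises and 1.78 among called falls, 133 rises and 156 falls exceeded 2-fold, and the largest were 3.96-fold and 5.83-fold. At an unadjusted p under 0.05 there were 2982 probes.

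The replicate numbers give 2 separate differences for each probe, 24 h minus 6 h within replicate 1 and within replicate 2. All 594 called rises and all 571 called falls had the same sign within both numbers, and in none did the 24 h signals overlap the 6 h signals, which the test's own threshold favours. Over all tested probes, 69.0% had the same sign within both numbers and 42.8% did not overlap. The median difference of called rises was 0.78 on the log2 scale within replicate 1 and 0.84 within replicate 2, and that of called falls was -0.82 and -0.85. The 25th percentile of the detection score over all probes was lower on replicate 1 of both times than on replicate 2 (0.0175 at 24 h and 0.0225 at 6 h, against 0.386 and 0.388). The within-number differences are thus also differences between arrays of like background by this score.

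**Figure D1:**
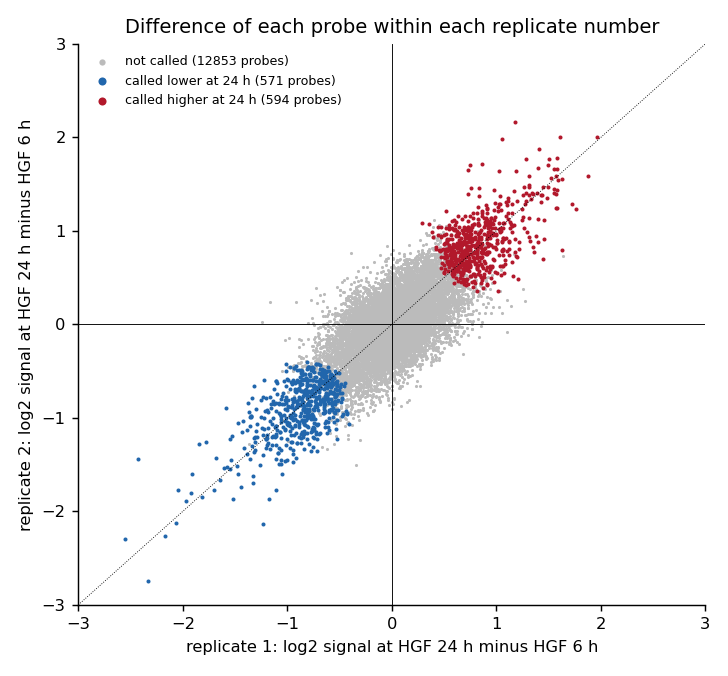
Difference in log2 signal, HGF 24 h minus HGF 6 h, of each of 14018 tested probes within replicate 1 (horizontal axis) and within replicate 2 (vertical axis), with red points for the 594 probes called higher at 24 h, blue points for the 571 called lower and grey points for the rest; the dotted line marks equal differences. Called probes lie in the lower left and upper right corners only, and the correlation over all probes was 0.74.

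The receptor and its partners were examined next. MET, the HGF receptor, had signals of 108.9 and 83.3 at 24 h, against 112.1 and 107.9 at 6 h. These lie close to the detection limit of 89.6, and the difference of -0.21 ± 0.19 (SE) on the log2 scale did not pass the test (adjusted p = 0.65, limma with Benjamini-Hochberg adjustment). HGF transcript was detected on 0 of 10 arrays, and ITGB4 on none of the 4. Of 17 measured receptor adaptors and activators, 2 rose and none fell (11.8% called, against 9.53% of all genes), with a median of -0.01 against 0.0 for all genes. CBLB, a ubiquitin ligase that turns receptor signalling down, had 421.1 and 371.0 at 24 h, against 209.2 and 198.1 at 6 h (0.96 ± 0.16, adjusted p = 0.004). GAB2, a docking protein of MET and other receptors, had 4049.2 and 4669.6 at 24 h, against 2396.6 and 2322.6 at 6 h (0.88 ± 0.17, adjusted p = 0.0082). Both genes, like every called rise, had every 24 h signal above every 6 h signal. The GAB2 call was lost without HGF 6 h replicate 2.

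Among ERK feedback and output genes, 6 of 30 measured genes fell, 1 rose (23.3% called, against 9.53% of all genes) and the median was -0.28. CCND1, the cyclin that couples mitogens to the cell cycle, had 169.2 and 145.4 at 24 h, against 550.2 and 497.3 at 6 h, a fall of 1.74 ± 0.29 on the log2 scale (adjusted p = 0.004). Its signals in untreated cells were 216.4 and 209.9. TMEM158, a gene induced by activated RAS, had 181.8 and 141.0 at 24 h, against 377.8 and 428.6 at 6 h (-1.33 ± 0.25, adjusted p = 0.0073, and 0.0573 without HGF 6 h replicate 2). DUSP5, a nuclear phosphatase of ERK, had 117.3 and 118.7 at 24 h, against 228.7 and 238.0 at 6 h (-0.98 ± 0.16, adjusted p = 0.0036). PHLDA1, RRP12 and SPRY1 were the other falls, with differences of -0.97, -0.85 and -0.56, while ETV5, an ETS factor, rose by 0.81. The falls numbered 3 when HGF 24 h replicate 1 or HGF 6 h replicate 1 was left out and 2 when HGF 6 h replicate 2 was. PHLDA1, RRP12, SPRY1 and ETV5, like every list member named in the text beyond the 3 with the largest change in its list, were picked out after their values were seen.

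Immediate early genes, which growth factors induce within the first hour, were split, with 4 of 31 higher, 4 lower and a median of -0.06. Called members made up 25.8%, against 9.53% of all genes. EGR1, a zinc finger factor of this class, had 94.7 and 88.8 at 24 h, against 509.9 and 240.6 at 6 h (-1.93 ± 0.46, adjusted p = 0.021). It was detected on 1 of the 24 h arrays only, the 6 h replicates differed by more than 2-fold, and the call was lost when HGF 24 h replicate 2 or HGF 6 h replicate 1 was left out (adjusted p up to 0.164). IER2 also fell (-0.96 ± 0.19, adjusted p = 0.0091, and 0.061 at most without either HGF 6 h array). MAFF, a small MAF factor, had 770.4 and 579.8 at 24 h, against 339.6 and 338.4 at 6 h (0.98 ± 0.22, adjusted p = 0.016), whereas a second MAFF probe differed by 0.20 (adjusted p = 0.58). When HGF 6 h replicate 2 was left out, no rise and 1 fall of this list were called, and when HGF 6 h replicate 1 was, 2 rises and 1 fall, with MAFF not called in either case nor without HGF 24 h replicate 1 (adjusted p up to 0.0841). The falls numbered 2 when HGF 24 h replicate 2 was left out.

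CXCL8, the neutrophil chemokine interleukin-8, had 102.8 and 90.1 at 24 h, against 463.0 and 433.1 at 6 h, a fall of 2.22 ± 0.26 on the log2 scale (adjusted p = 0.0011). Of the 24 h arrays 1 had it detected, and untreated cells had 173.2 and 123.7. TNFRSF12A, the receptor of the cytokine TWEAK, had 316.1 and 395.5 at 24 h, against 1307.6 and 1353.3 at 6 h (-1.91 ± 0.19, adjusted p = 0.00071). TM4SF19, a tetraspanning membrane protein, had 338.7 and 454.9 at 24 h, against 1416.2 and 1988.5 at 6 h (-2.10 ± 0.23, adjusted p = 0.00071). In each of these 3 genes, as in every called fall, the highest 24 h signal lay below the lowest 6 h signal. CEMIP, which degrades hyaluronan, fell by 1.69 ± 0.28 with 6 h replicates of 482.8 and 983.2, and the membrane proteins DCBLD2 (-1.76 ± 0.23) and NETO2 (-1.60 ± 0.25) fell too. In the list of NF-kB targets as a whole, 2 of 25 fell and 1 rose, with a median of 0.02. The called share of this list was only slightly above the 9.53% of all genes. The falls were CXCL8 and TNFAIP3, a brake on NF-kB (-1.06 ± 0.19). The rise was NFKB2 (0.97 ± 0.19), whose call was lost without HGF 6 h replicate 1.

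Of 27 motility and matrix proteolysis genes, 4 fell and 1 rose (18.5% called, against 9.53% of all genes). The gelatinase MMP2 had 222.1 and 345.0 at 24 h, against 509.4 and 653.1 at 6 h (-1.06 ± 0.22, adjusted p = 0.012). The metalloproteinase inhibitor TIMP3 also fell (-1.02 ± 0.23, adjusted p = 0.015), and so did PLAUR, the urokinase receptor (-0.58). SNAI2, a repressor active in neural crest cells and their descendants, had 1689.5 and 1427.3 at 24 h, against 807.9 and 818.2 at 6 h (0.93 ± 0.21, adjusted p = 0.015). The calls of MMP2, TIMP3 and SNAI2 were each lost when 1 of the 4 arrays compared was left out, the MMP2 call without HGF 6 h replicate 2 or HGF 24 h replicate 1, the TIMP3 call without either 6 h array or HGF 24 h replicate 2, and the SNAI2 call without either 6 h array or HGF 24 h replicate 1, with adjusted p up to 0.106, 0.105 and 0.081. No fall of the list was called without HGF 6 h replicate 2, and 2 were without either 24 h array.

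By log2 signal without background subtraction, the fall of MAT2A was the largest among genes detected on all 4 arrays. Its product, an enzyme, forms S-adenosylmethionine, the methyl donor of the cell. MAT2A had 189.1 and 138.3 at 24 h, against 956.1 and 930.6 at 6 h, a 5.83-fold difference (-2.54 ± 0.28, adjusted p = 0.00071). Untreated cells had 288.6 and 219.6 and HGF 1 h cells 239.6 and 302.9, so that of these 8 arrays the 6 h ones alone exceeded 302.9. Of 19 measured members of the methionine cycle and polyamine list, 1 other passed the test (AHCYL1, 0.57 ± 0.15, adjusted p = 0.035), and the median was 0.04. The share called was 10.5%, near the 9.53% of all genes. The AHCYL1 call was lost when any 1 array outside the HGF 1 h group was left out (adjusted p up to 0.17), and that of MAT2A under none.

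**Figure D2:**
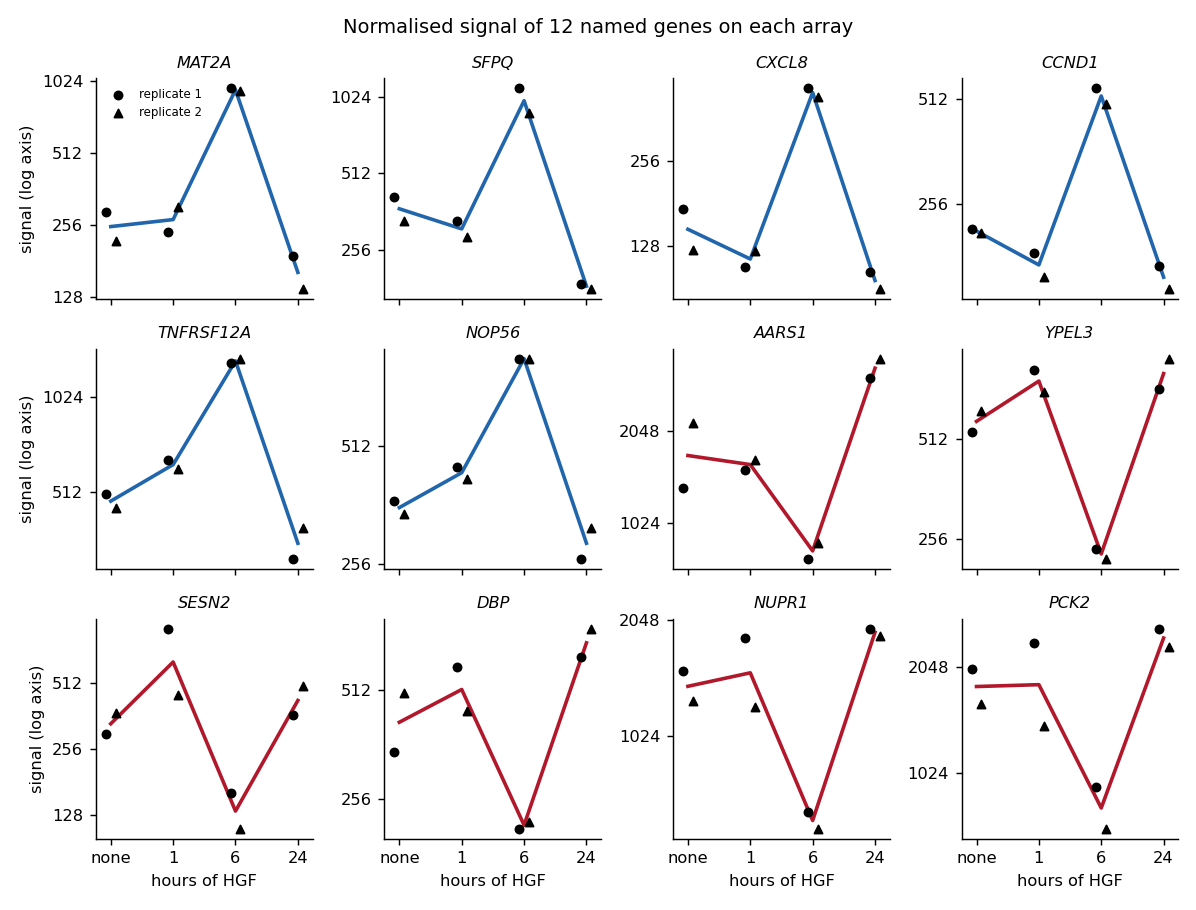
Normalised signal on each array for 12 named genes, in panels with a log axis of their own, over untreated cells and 1, 6 and 24 h of HGF, with circles for replicate 1, triangles for replicate 2 and lines through the geometric mean, blue where the gene was lower and red where it was higher at 24 h than at 6 h. In all 12 panels both 24 h arrays lie on 1 side of both 6 h arrays, as for every called probe. MAT2A had 189.1 and 138.3 at 24 h against 956.1 and 930.6 at 6 h. The 1 h replicates of SESN2 and PCK2 lie far apart.

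Ribosome biogenesis factors, the proteins that transcribe, cut, modify and fold ribosomal RNA in the nucleolus, formed the list with the most falls. Of 58 measured, 37 fell and none rose (63.8% called, against 9.53% of all genes called either way and 4.68% called lower), and the median was -0.80 within a range of -1.57 to 0.34. As for all lists here, members were chosen with earlier results of these data known, so this share is no independent support. The difference had the same sign within both replicate numbers for 53 of the 58, among them all called members, against 69.0% of all tested probes. NOP16, a 60S assembly factor, had 665.2 and 738.6 at 24 h, against 2025.2 and 2138.3 at 6 h (-1.57 ± 0.19, adjusted p = 0.0011). NOP56, a core protein of the box C/D particles that guide ribosomal RNA methylation, had 264.6 and 317.1 at 24 h, against 852.2 and 853.7 at 6 h (-1.56 ± 0.16, adjusted p = 0.00071). UTP14A, part of the small subunit processome, had 212.8 and 248.1 at 24 h, against 614.2 and 567.2 at 6 h (-1.36 ± 0.18, adjusted p = 0.0015). In all 3 genes, the largest changes of the list, the groups lay more than 2-fold apart at their nearest arrays. NCL, the nucleolar histone chaperone nucleolin, had 135.1 and 150.7 at 24 h, against 320.6 and 325.2 at 6 h, and fell by 1.18 ± 0.21.

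The falls spanned the steps of the pathway. They included POLR1B (-0.86), a subunit of RNA polymerase I, DKC1 and GAR1 (-1.10 and -0.81) of the pseudouridine particles, PES1 (-0.79) and BRIX1 (-1.17) of 60S assembly, and PNO1 and UTP4 (-1.11 and -0.93) of 40S assembly. Members that did not pass were fibrillarin (FBL, 0.07, adjusted p = 0.93), TCOF1 (-0.12) and NPM1 (-0.39). When 1 array was left out, the call count was 26 (HGF 24 h replicate 1), 32 (HGF 24 h replicate 2), 23 (HGF 6 h replicate 1) or 12 (HGF 6 h replicate 2), while the list's median stayed between -1.07 and -0.71 in every alternative run. The falls numbered 20 with the authors' background-corrected value table, 14 with signals floored at 2 times the detection limit and 5 with an ordinary pooled-variance test. Of 68 cytosolic ribosomal proteins 1 rose and 1 fell, with a median of 0.07, and of 74 mitochondrial ones 6 fell and none rose, with a median of -0.12. Their called shares were 2.94% and 8.11%, both below the 9.53% of all genes.

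Of 44 initiation and elongation factors, 6 fell and 1 rose (15.9% called, against 9.53% of all genes), with a median of -0.02. EIF4E, the protein that binds the mRNA cap, had 371.7 and 292.0 at 24 h, against 756.3 and 804.3 at 6 h (-1.24 ± 0.20, adjusted p = 0.0033), and the scaffolds EIF4G2 and EIF4G1 had differences of -1.05 and -0.98. EIF4EBP1, the inhibitor of EIF4E and a known ATF4 target, rose by 0.70 (adjusted p = 0.04). EIF5 fell by 1.27 ± 0.24 on one probe and differed by -0.36 (adjusted p = 0.28) on another. Of 35 proteasome subunits 4 fell and none rose (11.4% called), with a median of -0.29 and 4 subunits above 0. Leaving out either 6 h array took the falls to 3 among the translation factors (as did HGF 24 h replicate 2, with EIF4G2 lost each time at adjusted p up to 0.0976), to 1 among the mitochondrial ribosomal proteins and to 0 among the proteasome subunits, which had 2 without either ITGB4 array. The EIF4EBP1 rise was lost without either 6 h array, either ITGB4 array or HGF 24 h replicate 2.

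The second group of falls was that of nuclear RNA-binding proteins. Of 40 measured SR proteins, hnRNPs and paraspeckle proteins, which direct splicing and bind nuclear RNA, 14 fell and 2 rose, and the median was -0.48. The share called was 40.0%, against 9.53% of all genes. SFPQ, a core protein of paraspeckles, had 188.3 and 180.2 at 24 h, against 1104.7 and 884.4 at 6 h, a fall of 2.42 ± 0.29 on the log2 scale (adjusted p = 0.0011). SRSF2, an SR protein that binds exonic enhancers, had 996.4 and 1121.6 at 24 h, against 3518.7 and 4049.2 at 6 h (-1.84 ± 0.20, adjusted p = 0.00071). RBM14, also a paraspeckle protein, had 444.5 and 503.1 at 24 h, against 1293.9 and 1380.5 at 6 h (-1.50 ± 0.19, adjusted p = 0.0013). The 24 h and 6 h arrays of these 3 genes, the largest changes of the list, were well apart in both replicate numbers. SRSF3 (-1.34), SRSF1 (-1.20) and HNRNPU, a nuclear matrix protein (-1.22), also fell. CIRBP, a cold-inducible RNA-binding protein, and SRSF4 were the 2 rises, at 0.60 and 0.63. HNRNPA1 (-0.16), HNRNPA2B1 (-0.21) and NONO (-0.21), the partner of SFPQ in paraspeckles, did not pass. The count of falls was 8 when HGF 6 h replicate 1 was left out, and 9 when replicate 2 of either time was left out. It was 9 with the value table, 3 with the floor and 1 with the pooled-variance test.

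Metallothioneins, which bind zinc and copper, followed the same order. Of 6 measured members of the list, 4 fell and none rose (66.7% called, against 9.53% of all genes). The median was -0.96, with a range of -1.5 to -0.3 over the alternatives run. MT2A had 1258.7 and 1568.2 at 24 h, against 3114.1 and 3764.2 at 6 h (-1.29 ± 0.17, adjusted p = 0.0017). MT1X had 193.0 and 262.0 at 24 h, against 535.9 and 543.4 at 6 h (-1.26 ± 0.18, adjusted p = 0.0024). SLC30A1, the zinc exporter, was detected on neither 24 h array and on both 6 h arrays, at 174.7 and 160.7, which makes it at least 1.82-fold lower at 24 h. The measured difference was -1.22 (adjusted p = 0.0014). Metallothionein genes are near-identical copies, so probes of different members may share transcripts. Among 25 cytosolic heat shock proteins 4 fell (16.0% called, against 9.53% of all genes). The HSP110 chaperone HSPH1 led them, with 420.4 and 359.7 at 24 h, against 1078.1 and 976.9 at 6 h (-1.40 ± 0.26, adjusted p = 0.0064). Among 28 genes of cholesterol and fatty acid synthesis 5 fell and none rose (17.9% called), with a median of -0.19. The falls included HMGCS1 (-0.99 ± 0.16, adjusted p = 0.0036) and SQLE (-0.95 ± 0.16, adjusted p = 0.0039), enzymes of the mevalonate and sterol pathway. Without either 6 h array, 2 heat shock and 2 cholesterol genes were called, and 3 of the cholesterol genes without HGF 24 h replicate 2.

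**Figure D3:**
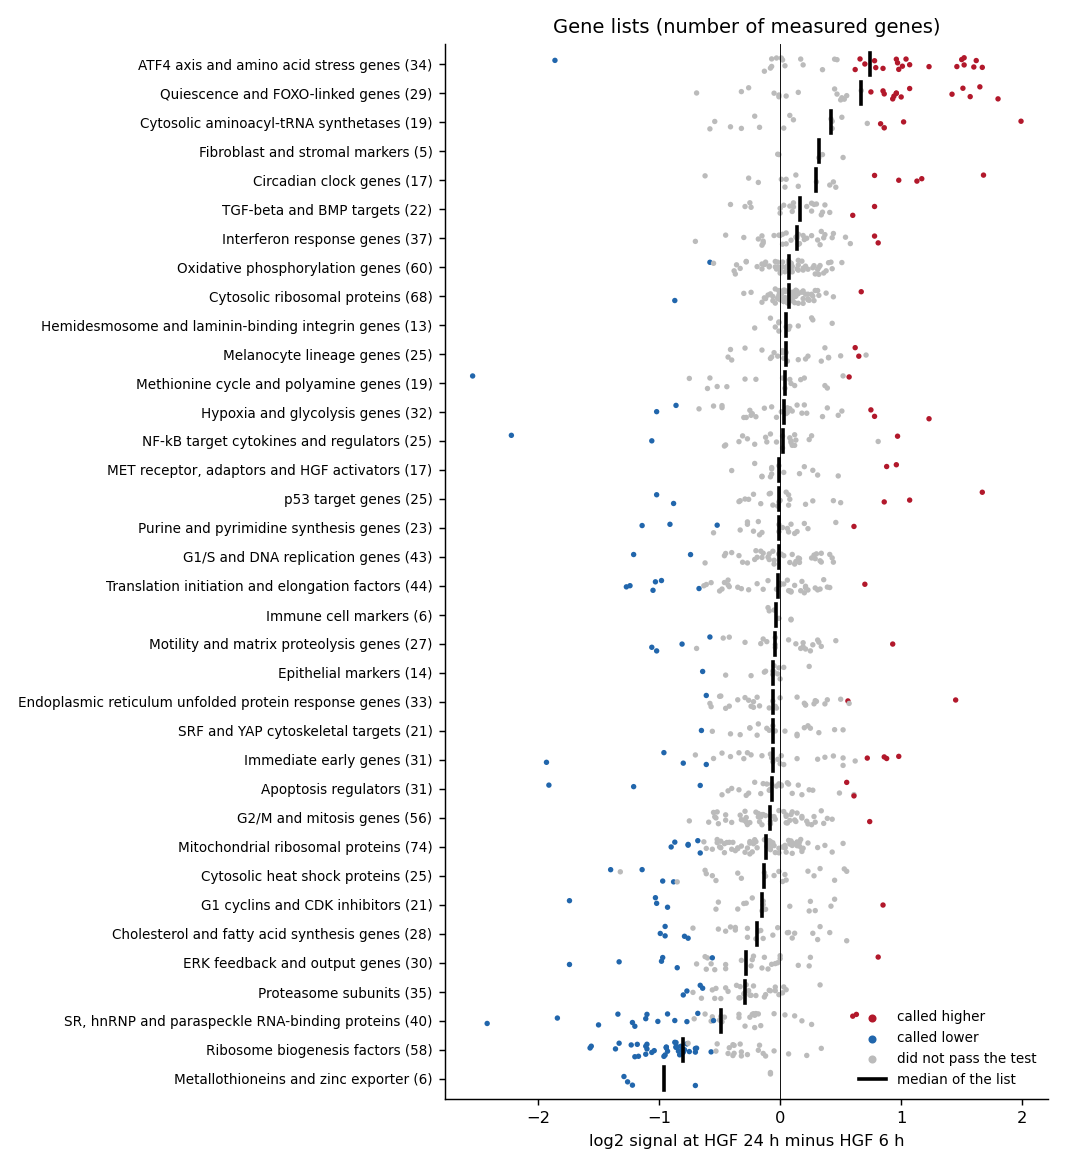
Log2 difference of each measured gene in 36 gene lists, HGF 24 h minus HGF 6 h, with 1 point per gene through its brightest probe (red called higher, blue called lower, grey did not pass) and a black bar at each list's median; lists run in order of the median and the number of measured genes stands after the name. The ATF4 axis (median 0.74) and the quiescence and FOXO-linked genes (0.67) lie at the top, ribosome biogenesis factors (-0.80) and the metallothionein list (-0.96) at the bottom, and most other lists are centred near 0.

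The leading group of rises was that of genes under ATF4 or induced by amino acid shortage. Of 34 measured, 20 rose and 1 fell (61.8% called, against 9.53% of all genes), with a median of 0.74. The members of this list, too, were chosen with earlier results of these data known, so its share is no independent support. ATF4 itself had 1146.0 and 1194.3 at 24 h, against 390.2 and 437.1 at 6 h (1.50 ± 0.16, adjusted p = 0.00071). NUPR1, a small stress-induced chromatin protein, had 1945.4 and 1862.3 at 24 h, against 649.2 and 587.8 at 6 h (1.62 ± 0.20, adjusted p = 0.0011). PCK2, the mitochondrial enzyme that makes phosphoenolpyruvate, had 2627.0 and 2322.6 at 24 h, against 932.3 and 710.3 at 6 h (1.60 ± 0.24, adjusted p = 0.0025). SESN2, a leucine sensor that restrains mTORC1, had 365.8 and 499.4 at 24 h, against 161.4 and 111.3 at 6 h (1.67 ± 0.30, adjusted p = 0.0051). Every 24 h signal of these 4 genes exceeded every 6 h signal, as in every called rise. The SESN2 difference was 1.18 within replicate 1 and 2.17 within replicate 2. Without HGF 6 h replicate 2 the SESN2 call was lost (adjusted p = 0.0501).

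The remaining rises of the list covered its main branches. The serine and one-carbon enzymes PHGDH, PSPH, PSAT1, SHMT2 and MTHFD2 rose by 0.79 to 1.01, asparagine synthetase (ASNS) by 1.04 and CTH, the last enzyme of cysteine synthesis, by 1.46. The pseudokinase TRIB3 and CHAC1, which breaks down glutathione, each rose by 1.52. DDIT3, the stress factor CHOP, rose by 1.07 and DDIT4, an inhibitor of mTORC1, by 1.23 ± 0.23. Amino acid carriers were an exception. SLC1A5 rose by 0.62, but SLC7A11 (-0.13), SLC3A2 (-0.07), SLC7A1 (-0.07) and SLC7A5 (0.17) did not pass the test. ATF5, a factor of the same family that is itself induced in this response, was the 1 fall, with 102.7 and 135.2 at 24 h, against 388.9 and 472.2 at 6 h (-1.86 ± 0.18, adjusted p = 0.00071). The count of rises was 6 without HGF 6 h replicate 2, and 14 or 15 without any 1 of the other 3 arrays compared, with the list's median between 0.62 and 0.81 in every alternative run. The rises numbered 7 with the authors' background-corrected value table, 4 with signals floored at 2 times the detection limit and 2 with an ordinary pooled-variance test.

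Cytosolic aminoacyl-tRNA synthetases, many of which are ATF4 targets, had 4 of 19 higher, none lower (21.1% called, against 9.53% of all genes) and a median of 0.42. AARS1, the alanyl-tRNA synthetase, was the largest rise among genes detected on all 4 arrays, by log2 signal without background subtraction, with 3057.1 and 3536.9 at 24 h, against 782.8 and 880.4 at 6 h, a 3.96-fold difference (1.99 ± 0.24, adjusted p = 0.0011). CARS1, the cysteinyl enzyme, had 2210.8 and 2687.0 at 24 h, against 1172.6 and 1234.8 at 6 h (1.02 ± 0.17, adjusted p = 0.0037). YARS1 and SARS1 rose by 0.86 and 0.83. The count of rises was 2 without HGF 6 h replicate 2 and 1 with the value table, 3 with the floor and 0 with the pooled-variance test, and 2 further members were called lower without HGF 24 h replicate 1. The YARS1 call was lost without either 6 h array or HGF 24 h replicate 2 (adjusted p up to 0.0609). Of 33 genes of the unfolded protein response of the endoplasmic reticulum, 2 rose and 1 fell (9.09% called, close to the 9.53% of all genes), and the median was -0.06. Its leading rise was HERPUD1, a part of the degradation machinery of that organelle and also a target of ATF4, with 599.4 and 733.0 at 24 h, against 241.3 and 243.6 at 6 h (1.45 ± 0.21, adjusted p = 0.0025).

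The other group with many rises held genes linked to quiescence and to FOXO factors, which AKT keeps out of the nucleus in growing cells. Of 29 measured, 14 rose and none fell (48.3% called, against 9.53% of all genes), and the median was 0.67. These members were likewise chosen with earlier results of these data known. YPEL3, a small zinc-binding protein whose overexpression halts growth, had 726.2 and 894.7 at 24 h, against 238.4 and 223.2 at 6 h (1.80 ± 0.18, adjusted p = 0.00071). Its relative YPEL4 had 351.9 and 303.2 at 24 h, against 116.9 and 104.2 at 6 h (1.57 ± 0.23, adjusted p = 0.0025), and YPEL5 rose by 1.51 with 1437.0 and 795.9 at 24 h, against 435.5 and 325.4 at 6 h. MXD4, which binds MAX and represses targets of MYC, had 763.3 and 922.4 at 24 h, against 286.6 and 250.5 at 6 h (1.65 ± 0.19, adjusted p = 0.0011). No 24 h signal of these 4 genes fell within the 6 h signals, as held for every called probe. The retinoblastoma relative RBL2 rose by 0.85, the repressor KLF9 by 0.94, BCL6 by 0.96 and TXNIP, an inhibitor of glucose uptake and thioredoxin, by 0.93. FOXO1 (-0.32) and FOXO3 (-0.01) themselves, SESN1 (-0.01) and CDKN1B (0.45) did not pass. The count was 6 without HGF 6 h replicate 2 and 7 without HGF 24 h replicate 1, with the list's median between 0.49 and 0.94 in every alternative run. The rises numbered 4 with the value table, 2 with the floor and 1 with the pooled-variance test.

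FBXO32, the ubiquitin ligase atrogin-1 known as a FOXO target in muscle, lay outside the list and had 764.4 and 863.6 at 24 h, against 269.7 and 252.5 at 6 h (1.64 ± 0.23, adjusted p = 0.0021). A second FBXO32 probe differed by 0.69 (adjusted p = 0.06). CTDSP2, a phosphatase of RNA polymerase II and SMAD linkers, had 2457.2 and 2637.8 at 24 h, against 853.0 and 891.7 at 6 h (1.55 ± 0.17, adjusted p = 0.00071). PHF21A, a part of the LSD1 corepressor complex, rose by 1.58 ± 0.18 and the phosphatase PPM1M by 1.59 ± 0.19.

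Circadian clock genes had 5 of 17 higher, none lower (29.4% called, against 9.53% of all genes) and a median of 0.30. DBP, an output factor of the clock, had 632.0 and 757.8 at 24 h, against 211.3 and 221.3 at 6 h (1.68 ± 0.32, adjusted p = 0.0073). CIART, a repressor of the clock, had 197.9 and 236.5 at 24 h, against 89.0 and 103.4 at 6 h (1.17 ± 0.18, adjusted p = 0.0026), with 1 of the 6 h arrays above detection. PER1 was detected on both 24 h arrays, at 164.5 and 196.5, and on neither 6 h array, which makes it at least 1.97-fold higher at 24 h. The measured difference was 1.13 (adjusted p = 0.007). The count was 3 when either 6 h array or HGF 24 h replicate 2 was left out and with the value table, and 0 with the floor or the pooled-variance test.

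Of 43 G1/S and DNA replication genes 2 fell and none rose (4.65% called), with a median of -0.01. Of 56 G2/M and mitosis genes 1 rose and none fell (1.79% called), with a median of -0.08. Among G1 cyclins and CDK inhibitors 4 of 21 fell and 1 rose (23.8% called, against 9.53% of all genes), with a median of -0.15. SKP2, which targets CDK inhibitors for degradation, had 443.5 and 452.6 at 24 h, against 880.0 and 953.2 at 6 h (-1.03 ± 0.18, adjusted p = 0.0051), with other SKP2 probes at -0.68 (adjusted p = 0.032) and -0.12 (adjusted p = 0.85). CDKN1A, the CDK inhibitor p21, fell by 1.02 ± 0.22 (adjusted p = 0.014, and up to 0.133 without HGF 6 h replicate 2 or HGF 24 h replicate 1). RRM2, a subunit of ribonucleotide reductase, fell by 1.21 ± 0.25 on one probe, while a second, dimmer probe differed by 0.37 (adjusted p = 0.25). The RRM2 call was lost without the same arrays as that of CDKN1A (adjusted p up to 0.108), and 2 falls among the G1 regulators were called without HGF 6 h replicate 2. Interferon response genes (2 of 37 higher), oxidative phosphorylation genes (1 of 60 lower), SRF and YAP targets (1 of 21 lower) and hemidesmosome genes (none of 13 at an adjusted p under 0.05) were called at rates below 9.53%.

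**Figure D4:**
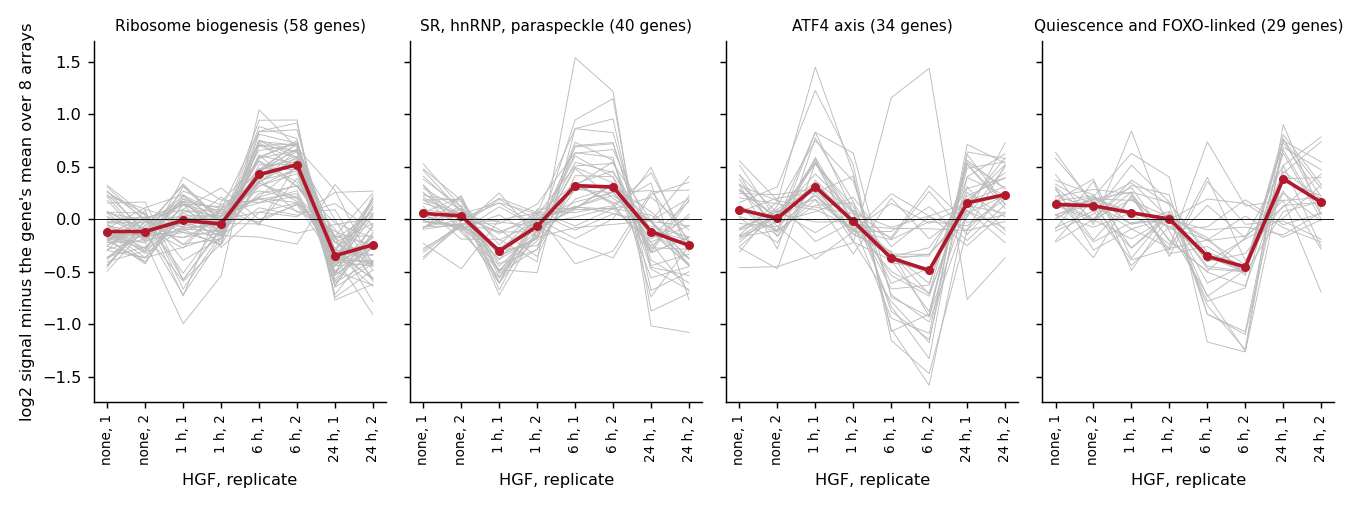
Log2 signal of each measured gene of 4 lists on 8 arrays (untreated, then HGF 1 h, 6 h and 24 h, replicates 1 and 2 of each), after subtraction of the gene's mean over the 8 arrays; grey lines are genes and the red line is their median. The red line is highest on both 6 h arrays for ribosome biogenesis factors (58 genes) and for SR, hnRNP and paraspeckle proteins (40 genes), and lowest on both 6 h arrays for the ATF4 axis (34 genes) and the quiescence and FOXO-linked genes (29 genes).

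Levels in untreated cells can be set beside the 2 times. The labels give the untreated arrays no time, and none is matched to 6 h or 24 h. Length of HGF exposure and time in culture can therefore not be told apart. The differences of 6 h and of 24 h from untreated cells share the 2 untreated arrays, and each also shares its HGF arrays with the comparison above, so they are given side by side without a test. For ribosome biogenesis factors the median was 0.58 at 6 h minus untreated and -0.19 at 24 h minus untreated. For SR, hnRNP and paraspeckle proteins it was 0.24 at 6 h and -0.25 at 24 h, and for the metallothionein list 0.99 and 0.10. For the ATF4 axis it was -0.46 at 6 h and 0.15 at 24 h, for quiescence and FOXO-linked genes -0.48 and 0.10, and for clock genes -0.26 and 0.10. The 6 h median lay farther from 0 than the 24 h median in each of these lists except the RNA-binding proteins, where both were of like size and opposite sign.

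Some called genes were detected at 1 of the times only, and their folds are bounds set by the detection limit. Their adjusted p-values belong to the difference of the signals as measured, not to the bound. LDB2, a LIM domain-binding cofactor, had 306.0 and 227.4 at 24 h and was detected on neither 6 h array, and was thus at least 2.89-fold higher at 24 h (adjusted p = 0.002). COQ8A, a kinase-like protein of coenzyme Q synthesis, and the chromatin organiser SATB1 were at least 2.60-fold and 2.46-fold higher (both adjusted p = 0.0014). In the other direction, NUP98, a nuclear pore protein, was at least 2.53-fold lower, SERPINB8, a serpin, at least 2.19-fold lower and LAMA1, a laminin chain, at least 2.15-fold lower at 24 h, with 6 h signals of 227.3 and 239.2, of 206.4 and 196.3, and of 179.0 and 223.1.

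Promoter sequences were read for the groups with the most calls. In the RefSeq table used (GRCh38.p14, 250 bases before to 50 after each start), an E-box with the letters CACGTG, the site of MYC and MAX and of clock and other factors, stood in 7.43% of all 27305 promoters and in 10.3% of the 8728 found among tested genes. It stood in 14 of the 33 promoters found for ribosome biogenesis genes called lower (42.4%) and in 21 of 50 for all measured ones (42%). Among all genes called lower it stood in 70 of 434 promoters (16.1%), and among all called higher in 35 of 440 (7.95%). The element TGATGNAA, the core of the composite site of ATF4 and C/EBP, stood in 1.84% of promoters of tested genes. It stood in 2 of 15 ATF4-axis genes called higher (13.3%), CHAC1 and ASNS, and in 5 of 28 measured ones (17.9%). Among synthetases it stood in 2 of 3 called higher (66.7%), AARS1 and CARS1, and in 6 of 16 measured ones (37.5%). Both strands were searched, neither element contains the other, and a match describes the letters only.

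From the called genes that hold 1 of these elements, 6 promoters are shown as examples, with the element in capitals, 5′ to 3′ on the strand of the gene. They were chosen for holding a match, which SESN2, PCK2, TRIB3, ATF4 and CTH lack for the ATF4 element and NOP16, NOP56, LYAR and RRP15 for the E-box. They are AARS1 (chr16:70289457-70289756, minus strand, 1.99 at 24 h minus 6 h), CHAC1 (chr15:40953221-40953520, plus strand, 1.52), ASNS (chr7:97872359-97872658, minus strand, 1.04), UTP14A (chrX:129905914-129906213, plus strand, -1.36), PNO1 (chr2:68157638-68157937, plus strand, -1.11) and RRP9 (chr3:51941855-51942154, minus strand, -0.80), the last a protein of the U3 particle. Counted from the start of transcription, the ATF4 element begins at -187 in AARS1, -209 in CHAC1 and -68 in ASNS, and in AARS1 and CHAC1 it reads on the opposite strand. The E-box begins at -241 in UTP14A, at -5 in RRP9 and at 10 in PNO1.
AARS1: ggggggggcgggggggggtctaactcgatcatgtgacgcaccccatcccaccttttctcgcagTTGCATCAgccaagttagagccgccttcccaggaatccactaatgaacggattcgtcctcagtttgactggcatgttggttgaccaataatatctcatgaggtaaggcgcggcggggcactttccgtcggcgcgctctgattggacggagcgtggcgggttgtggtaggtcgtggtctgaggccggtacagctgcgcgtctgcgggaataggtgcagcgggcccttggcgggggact
CHAC1: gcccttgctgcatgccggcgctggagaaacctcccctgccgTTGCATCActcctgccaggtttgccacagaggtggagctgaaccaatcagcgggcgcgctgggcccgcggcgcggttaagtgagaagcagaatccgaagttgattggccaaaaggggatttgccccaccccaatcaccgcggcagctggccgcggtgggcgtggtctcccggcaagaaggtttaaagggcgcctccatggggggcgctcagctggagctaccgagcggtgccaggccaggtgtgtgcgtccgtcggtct
ASNS: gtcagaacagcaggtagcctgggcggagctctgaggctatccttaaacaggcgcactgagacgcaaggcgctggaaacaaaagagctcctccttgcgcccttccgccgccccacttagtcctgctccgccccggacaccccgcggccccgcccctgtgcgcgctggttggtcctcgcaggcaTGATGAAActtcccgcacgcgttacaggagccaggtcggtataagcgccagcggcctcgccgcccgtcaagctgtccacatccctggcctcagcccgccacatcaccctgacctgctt
UTP14A: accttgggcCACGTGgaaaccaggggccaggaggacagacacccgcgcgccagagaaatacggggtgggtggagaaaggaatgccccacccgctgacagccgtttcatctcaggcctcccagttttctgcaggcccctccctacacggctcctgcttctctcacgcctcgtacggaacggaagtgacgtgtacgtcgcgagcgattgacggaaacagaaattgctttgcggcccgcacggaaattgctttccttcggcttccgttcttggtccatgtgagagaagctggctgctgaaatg
PNO1: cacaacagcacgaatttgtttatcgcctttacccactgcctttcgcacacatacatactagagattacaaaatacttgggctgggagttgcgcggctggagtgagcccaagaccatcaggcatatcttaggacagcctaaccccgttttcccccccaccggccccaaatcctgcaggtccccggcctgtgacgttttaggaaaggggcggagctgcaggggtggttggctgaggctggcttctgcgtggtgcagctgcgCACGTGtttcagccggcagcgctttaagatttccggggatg
RRP9: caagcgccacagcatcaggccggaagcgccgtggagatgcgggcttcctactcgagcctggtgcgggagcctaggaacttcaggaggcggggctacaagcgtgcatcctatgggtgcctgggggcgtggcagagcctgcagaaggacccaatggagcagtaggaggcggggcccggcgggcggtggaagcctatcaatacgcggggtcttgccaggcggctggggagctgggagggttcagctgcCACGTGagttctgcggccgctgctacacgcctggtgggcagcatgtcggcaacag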

How the data were processed

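Groups and replicate numbers came from the sample labels. For each Illumina Human-8 V1 array the authors deposited 1 table of raw intensities, averaged over the beads of a probe and neither corrected for background nor normalised. The submitters' processing notes name BeadStudio 1.5.1.3. The deposited tables also hold bead counts per probe (median 26 to 32) and a detection score, a fraction from 0 to 1 against the negative control probes. A further deposited table gives, for all 10 arrays, the authors' background-corrected intensities after rank-invariant normalisation. It was a straight line of the scanner values in 9 of 10 columns (all but ITGB4 replicate 2) and was used as an alternative.

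Of 24136 probes, 22 controls and 9 without an intensity on every array were set aside. Intensities of the authors' tables were quantile normalised and brought to the log2 scale without offset, and 14018 probes (58.2%) with a detection score of 0.99 or more on at least 1 array were kept, the study's own filter. Of these 11466 carried a symbol, for 10596 genes, updated through the RefSeq gene table. limma 3.58.1 in R 4.3.3 fitted 5 group means over 10 arrays with 5 residual and 8.16 prior degrees of freedom, and a probe was called at a two-sided adjusted p under 0.05. The script was tested on simulated data. No background was subtracted, so folds of dim probes are understated. For a gene detected on neither array of a time, the fold is a bound set by the detection limit. Its p-value comes from the same fit to the measured signals.

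The 36 lists were described by counts and medians, with no set test, and their members were chosen with earlier results of these data known. Genes were picked for naming by a rule. It took the 12 largest rises and the 12 largest falls by log2 difference. These came from called probes detected on all 4 arrays without overlap of the groups. It added up to 3 called genes of each list, up to 3 in each direction detected at 1 time only, and MET, HGF, ITGB4 and CXCL8. The text leaves some of them out, such as PBDC1 (-1.69 ± 0.24), 1 of the 12 largest falls. Counts of named genes include those left out. Of genes with several kept probes (725), 87 had a called probe, and none was called in both directions. Alternatives covered background, scaling, the filter, a floor, blocks, the arrays fitted and each array left out. The number of arrays limits the precision. Labels give no culture, extraction or hybridisation batch. Genome positions are given only for the promoters shown, since the files state no build.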

Additional observations from a re-analysis of the deposited data

How the results depend on the processing

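The call count of 1165 (51.0% higher) moved by over 1.5 times under several settings. It was 483 (41.4% higher) with the authors' background-subtracted value table, 317 (33.1% higher) with signals floored at 2 times the detection limit, 599 with only the 4 arrays compared and 107 with an ordinary pooled-variance test. Leaving out 1 array gave 308 to 1068 calls, with 308 without HGF 6 h replicate 2 and 434 without HGF 6 h replicate 1. No called probe changed sign in any alternative, though 102 became 0 under the floor. Most alternatives could not change a sign. The groups of called probes did not overlap, so leaving out an array or setting a floor kept the direction. The filters, blocks and pooled-variance test left the difference itself unchanged. Only the alternatives of background and scaling could have reversed it. The cause of these shifts was not tested. With a replicate block the count was 2245, with a block for array background 2163, and with a replicate block on only the 4 arrays 3590, and all 1165 calls were among those of each. The numbers mark a shared source in no label, and replicate 1 minus replicate 2 deviations of the 6 h and 24 h arrays correlated at 0.65 across probes. Over the 10 pairs of groups this ranged from -0.06 (ITGB4 and 1 h) to 0.66 and was 0.06 between 24 h and 1 h, so the pairing is a hint from the data only. With the replicate block, called members were 8 higher and 2 lower among synthetases (4 and 0 without it), 21 lower among RNA-binding proteins (14), 15 lower and 1 higher among mitochondrial ribosomal proteins (6 and 0), 12 lower among ERK genes (6), 21 higher and 1 lower among quiescence genes (14 and 0) and 7 higher and 1 lower among clock genes (5 and 0). The metallothionein list had 2 falls with the value table, 3 with the floor and 1 with the pooled-variance test (4 as reported), and the ERK list had 5, 1 and 1 (6). Of the 24 leading genes, 23 kept the call with the value table (all but PCK2, adjusted p = 0.0585 by limma). SESN2 alone lost it when 1 array was left out. These genes were picked as the largest differences among calls from the same arrays, which favours keeping the call. Over all 1165 calls, 37.7% were kept with the value table. Of all 97 named called genes 52 were called whichever array was left out, and the others lost the call at adjusted p up to 0.256. Several list medians near 0 changed sign over the alternatives. Those of the ribosome, RNA-binding, ATF4, quiescence and metallothionein lists kept their sign, but the metallothionein median ranged from -1.5 to -0.3, and the ERK median of -0.28 from -0.69 to 0.0. In the value table, CXCL8 (-3.89), EGR1 (-3.72), NUP98 (-4.34), SLC30A1 (-5.32) and SERPINB8 (-7.1) lay below MAT2A (-3.36) on the log2 scale, each undetected on at least 1 of the 24 h arrays. Named genes above AARS1 (2.0) there included SATB1 (4.62), LDB2 (4.3), COQ8A (3.44) and PER1 (3.42), undetected on both 6 h arrays, and YPEL4 (2.53) and SESN2 (2.42), detected on all 4.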

Other observations

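Some genes outside the lists, picked after their values were seen, were also called. The MYC antagonists MNT and MXD3, which like MXD4 bind MAX, had 442.1 and 471.6 (MNT) and 268.8 and 354.1 (MXD3) at 24 h, against 237.5 and 194.6 and against 105.5 and 134.7 at 6 h, differences of 1.09 ± 0.17 and 1.37 ± 0.24 on the log2 scale (SE, limma adjusted p = 0.0033 and 0.0052). MYC itself had 2863.7 and 2060.4 at 24 h, against 1725.4 and 1671.0 at 6 h, and did not pass (0.52 ± 0.18, adjusted p = 0.11).

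Of 7 genes of autophagy looked up in the same way, 4 were called, against 9.53% of all genes. No fixed list stands behind them and they were picked after their values were seen, so the count describes these 7 genes only. GABARAPL1, a protein of the autophagosome membrane, had 398.3 and 371.4 at 24 h, against 147.4 and 142.6 at 6 h (1.41 ± 0.18, adjusted p = 0.0014). The cargo receptor NBR1 rose on 2 probes (1.37 and 1.14) and differed by -0.02 on another near the detection limit, and the kinase ULK1 and the lipid carrier ATG2A rose by 1.02 and 1.29. SQSTM1 (-0.40), MAP1LC3B (0.27) and WIPI1 (0.39), from the same process, did not pass. RAN, the GTPase of nuclear transport, had 249.7 and 224.7 at 24 h, against 632.6 and 555.5 at 6 h (-1.32 ± 0.16, adjusted p = 0.0013), and the helicase DDX5 fell by 1.53 ± 0.31.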
